A study of Mus musculus with 6 samples.

Results

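The colon of mice that ate parsley while they drank dextran sodium sulphate (DSSPAR) was compared with the colon of control mice (CON). Each group was 1 array of RNA pooled from 7 mice, so the comparison rests on 2 of the 6 colon and liver arrays of the study. All groups were male C57BL/6J mice, 7 weeks old (the sample labels spell the strain C576B6/J). CON mice had a basal diet and plain water. DSSPAR mice had the basal diet with 2% parsley throughout, 7 days of plain water and then 1.5% dextran sodium sulphate for 9 days. A further group (DSS) had the basal diet, 7 days of plain water and the same 1.5% solution for 10 days. Its colon array is given beside the values below. DSSPAR thus differed from CON in diet and polymer together, and from DSS in diet and by 1 day of exposure, and these cannot be told apart. The growth protocol gives 9 days in words that follow the DSSPAR group only, so the duration for DSS is less certain.

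Genes were those whose probe sets, the groups of short probes by which an Affymetrix array reads a transcript, carried exactly 1 gene symbol. There were 18194 such genes, and a gene with several probe sets was read from the brightest. The deposited linear intensities were raised to a floor of 25.1, the median of the 3 colon arrays, and a gene was kept if CON or DSSPAR lay above the floor. This left 11808 genes measured and 6386 not above the floor. A gene kept through DSSPAR alone could only stand over CON, and a gene kept through CON alone only under CON. Values are intensities in the order CON, DSS and DSSPAR, and a log2 ratio is always that of DSSPAR over CON. Where 1 of the arrays did not exceed the floor the fold is a lower bound, written "at least". With 1 pooled array per group there was no replicate spread, no test could be run, and whether groups overlap could not be seen. DSS and DSSPAR are read against the same CON array, so a high or low CON value moves both ratios.

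Dextran sodium sulphate is a sulphated polymer that injures the colonic epithelium from the lumen, after which bacteria reach the mucosa and neutrophils, monocytes and macrophages enter the wall. The colonic epithelium consists of crypts, where stem cells divide, and of a surface of absorptive colonocytes, mucus-secreting goblet cells and hormone-producing enteroendocrine cells. Colonocytes take up salt, water and short-chain fatty acids and carry enzymes that oxidise and conjugate foreign compounds. Parsley is a herb rich in flavones, chiefly glycosides of apigenin.

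All 12 colon markers, among them the chloride exchanger gene Slc26a3, the mucin gene Muc2 and the brush border gene Vil1, lay above the floor in each of the 3 colon arrays. Of 9 liver markers, Alb, Apoa1, Apoh and Fgb were above it in none, Cyp2e1 in DSS alone, and Apob, Cps1, Tat and Ttr in all 3, with Ttr at 1547, 408 and 1092 and Apob at 394, 339 and 415. The DSS array stood apart in a list of exocrine pancreas genes, with 14 of 14 above the floor against 5 in CON and 5 in DSSPAR. Among them Prss2, a trypsinogen, read 12.0 in CON, 581 in DSS and 14.3 in DSSPAR, and Ctrb1, a chymotrypsinogen, 1.55 in CON, 468 in DSS and 7.03 in DSSPAR. The list also holds Zg16 (8247, 8413 and 9077) and Sycn (5391, 2412 and 3937), which were bright in all 3 colon arrays. The trimmed mean intensity was 106 in CON, 111 in DSS and 110.3 in DSSPAR, and 51.7%, 50.5% and 47.8% of probe sets lay above the floor. The median intensity of DSSPAR was lower than that of CON by a log2 difference of -0.28, whereas the median gene measured stood at a log2 ratio of 0.03 with quartiles of -0.25 and 0.31. The 5' probe set for 18S ribosomal RNA, a control on the array, read 6156 in CON, 4018 in DSS and 390.4 in DSSPAR. The log2 ratio also moved with the length of the gene, as described with the nerve and muscle genes below. The part of these differences in any result, or in the DSS values, was not tested.

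Of 11808 genes, 415 were at least 2-fold higher in DSSPAR than in CON, 3.51% of those measured, and 248 were at least 2-fold lower, 2.10%. These shares are the background against which the counts in gene groups below are to be read. For counts of members over or under CON by any amount, the background is 6211 genes over CON and 5597 under. Past 4-fold there were 59 higher and 29 lower genes, and past 10-fold 8 and 6. With each array centred on its own median the same threshold gave 890 higher and 121 lower genes, so the balance between the directions rests on the scaling. At the threshold itself the values ran on without a gap, from a log2 ratio of 0.999807 outside to 1.00036 inside among the higher genes. For 72 of the higher and 61 of the lower genes the fold is a lower bound. Where a called gene had several probe sets above the floor, all lay on the same side of CON for 197 of 236 genes (83.5%), against 56.9% of all genes with several. Called genes were chosen for a large ratio on a probe set that is itself counted here. A higher share was thus built into the choice and lends the calls no support.

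**Figure D1:**
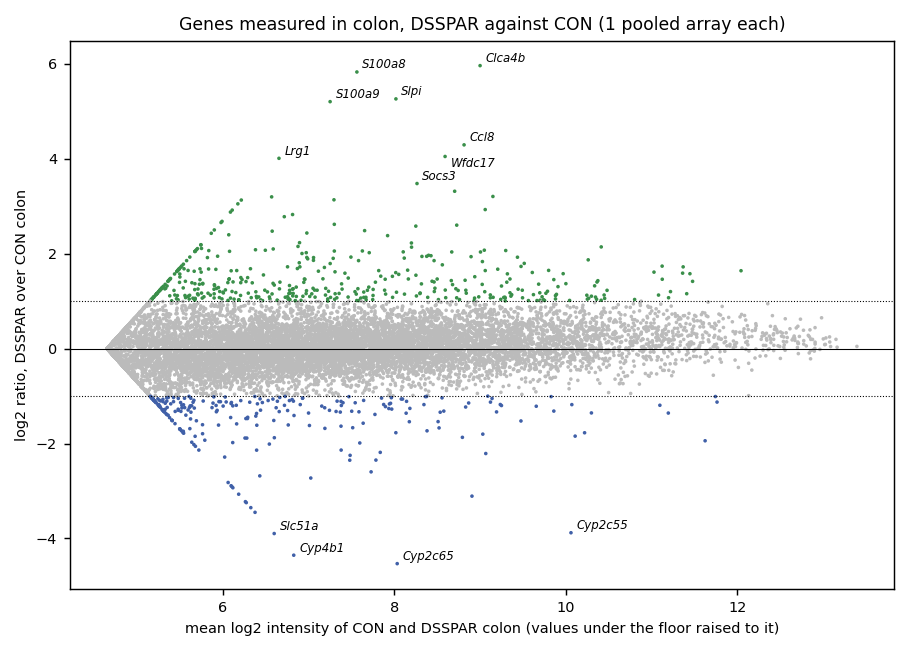
Each point is 1 of the 11808 genes measured in colon, with the mean log2 intensity of CON and DSSPAR on the x axis and the log2 ratio of DSSPAR over CON on the y axis. Green points are the 415 genes at least 2-fold higher and blue points the 248 at least 2-fold lower (dotted lines), and the straight edges on the left are genes with 1 array at the floor.

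The genes that stood highest over CON were Clca4b, the calprotectin genes, Slpi and Ccl8. Clca4b, a member of the calcium-activated chloride channel regulator family, read 64.9 in CON, 5150 in DSS and 4037 in DSSPAR, and was 62.2-fold higher in DSSPAR. S100a8 and S100a9 encode calprotectin, the metal-binding protein of neutrophils. S100a8 read 18.5 in CON, 2057 in DSS and 1423 in DSSPAR, and was at least 56.7-fold higher. S100a9 read 9.96 in CON, 839 in DSS and 923 in DSSPAR, and was at least 36.8-fold higher. CON lay under the floor for both genes and both polymer-treated arrays were high. Slpi, a secreted inhibitor of leukocyte proteases, read 41.9 in CON, 2050 in DSS and 1603 in DSSPAR, and was 38.3-fold higher. Ccl8, a chemokine that draws monocytes, read 102 in CON, 1881 in DSS and 1989 in DSSPAR and was 19.6-fold higher. Of these genes S100a9 and Ccl8 read higher in DSSPAR than in DSS, and Clca4b, S100a8 and Slpi read lower.

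The next genes in that order had varied roles. Wfdc17, of the whey acidic protein family, was 16.5-fold higher (94.9, 1179 and 1567), and its relative Wfdc18 was 9.94-fold higher (132, 1785 and 1314). Lrg1, a secreted glycoprotein of the acute phase, was at least 16.1-fold higher (1.31, 891 and 404). Socs3, the feedback inhibitor of signalling through STAT3, was 11.1-fold higher (92.1, 1230 and 1025), and all 3 of its probe sets were higher. Retnlb, a goblet cell product that acts on bacteria and worms, was 9.21-fold higher (187, 1285 and 1723). Lbp, which binds bacterial lipopolysaccharide, was 9.16-fold higher (31.3, 332 and 287). Ppy, the hormone pancreatic polypeptide, was 8.78-fold higher (52.99, 295 and 465). The pseudogene Clca4c-ps was at least 8.74-fold higher, the secreted phospholipase gene Pla2g2a at least 8.27-fold higher and Cd177, a surface protein of neutrophils, 7.61-fold higher (193, 887 and 1471). Clca4c-ps is a close copy of the other Clca4 genes, so its signal may be shared with theirs.

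The lowest genes included enzymes of the cytochrome P450 family and carriers of the epithelium. Cyp2c65, a cytochrome P450, read 1258 in CON, 50.8 in DSS and 54.5 in DSSPAR and was 23.1-fold lower in DSSPAR. Cyp2c55, its close relative, read 4094 in CON, 101 in DSS and 278 in DSSPAR and was 14.7-fold lower. Cyp4b1, a P450 of another family, read 512 in CON, 17.2 in DSS and 21.1 in DSSPAR and was at least 20.4-fold lower. For all 3 genes CON was high and both polymer-treated arrays were low. Slc51a, a subunit of the basolateral bile acid exporter, was at least 14.9-fold lower (374, 20.6 and 7.94), and Slc10a2, the apical bile acid carrier, was at least 8.38-fold lower (210.3, 14.9 and 1.15). The sulphate carrier gene Slc13a1 was at least 9.35-fold lower (235, 14.4 and 8.19) on both of its probe sets.

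The other lowest genes differed in role. Prkg2, a kinase activated by cyclic GMP, was at least 10.9-fold lower (274, 30.2 and 21.4) on all 3 of its probe sets. Acaa1b, a peroxisomal thiolase, was at least 10.2-fold lower and Ugt2b5, a glucuronosyltransferase, at least 9.48-fold lower. Tmigd1, an adhesion protein of the epithelial surface, read 1407 in CON, 182 in DSS and 163 in DSSPAR and was 8.62-fold lower. Naaladl1, an intestinal peptidase, was at least 7.63-fold lower (191, 2.43 and 1.55). The esterase gene Ces1g was 7.50-fold lower, and its DSSPAR value of 25.1 lay just above the floor. The neuropeptide gene Nts was at least 7.41-fold lower and the homeobox gene Hoxb6 at least 7.07-fold lower. Dpyd, the first enzyme of pyrimidine breakdown, was 6.62-fold lower (335, 42.7 and 50.6) on both probe sets.

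**Figure D2:**
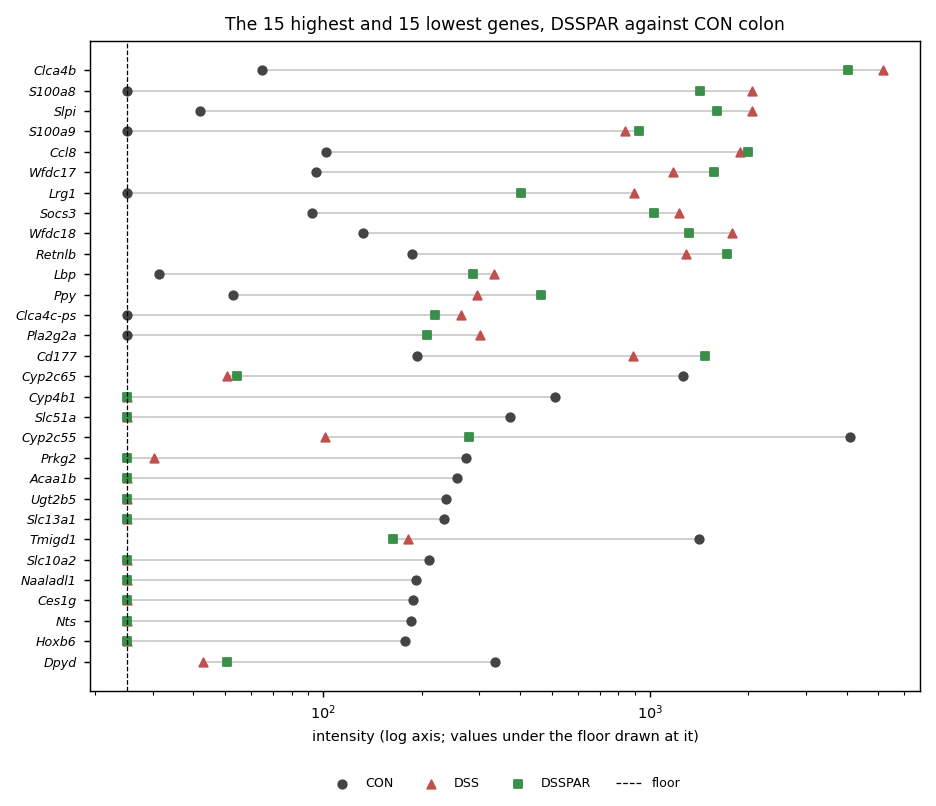
Intensities on a log axis in the CON (circle), DSS (triangle) and DSSPAR (square) colon arrays for the 15 highest and 15 lowest genes, chosen on the ratio of DSSPAR to CON, each point being 1 pooled array and the dashed line the floor of 25.1. Among the upper 15 genes CON is the lowest point, and among the lower 15 it is the highest.

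Among 61 gene groups, 60 had at least 4 measured members, and their medians lay over 0 in 43 and under 0 in 17. Their 1169 measured genes held 172 that were at least 2-fold higher and 55 that were at least 2-fold lower. The groups were written with earlier results of these arrays known, so these counts describe them and single none out. The highest median was that of macrophage markers, also under 6 of 8 other settings. Neutrophil genes stood highest under the other 2, at 3.04 on 4 genes with a floor raised to the 75th percentile and 2.56 on 9 with no floor. The lowest median was that of crypt stem cell and Wnt target genes, also under 3 of the 8 settings, with neuron and glia genes or conjugating enzymes lowest under the others.

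**Figure D3:**
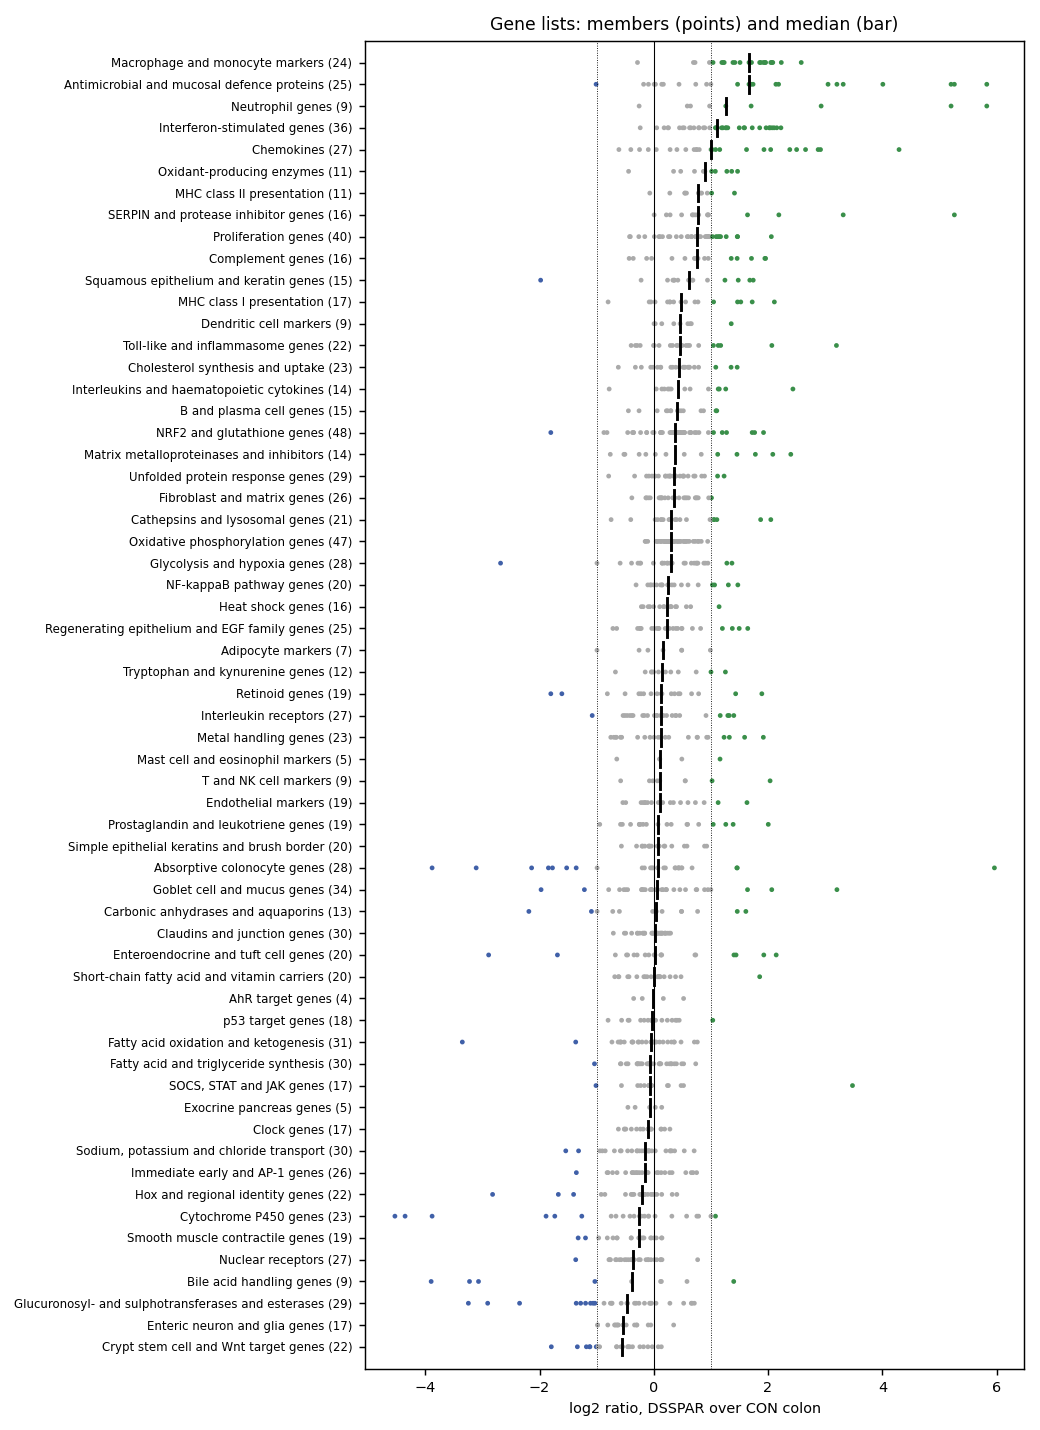
Log2 ratio of DSSPAR over CON for the measured members of 60 gene groups, 1 pooled array per group, with the number measured in brackets; points are genes (green at least 2-fold higher, blue at least 2-fold lower) and bars are medians. Medians run from -0.56 to 1.67 around an all-gene median of 0.03, and 12 of them change sign when each array is centred on its own median.

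Macrophage and monocyte markers were higher almost throughout. Of 24 measured, 20 were at least 2-fold higher and 0 lower, with a median log2 ratio of 1.67 in DSSPAR and 1.82 in DSS. In CON 19 lay above the floor and in DSSPAR 24. With the floor at the 75th percentile 11 of 16 were higher. Tyrobp, the signalling adaptor of myeloid receptors, read 125 in CON, 631 in DSS and 744 in DSSPAR and was 5.98-fold higher. Fcgr3, an Fc receptor, was 4.69-fold higher (54.9, 345 and 257), and Fcer1g, its signalling chain, was 3.78-fold higher (68.5, 439 and 259). Cd14, the co-receptor for lipopolysaccharide, was 4.18-fold higher (308, 989 and 1288) and Ms4a6d 4.23-fold higher (40.5, 258 and 171). The lysosomal marker Cd68 was at least 4.13-fold higher and the lysozyme gene Lyz2 3.65-fold higher (642, 2735 and 2345). Csf1r, the growth factor receptor that defines the lineage, was 2.05-fold higher (422, 1024 and 866), and Adgre1, which encodes F4/80, had a log2 ratio of 0.97. Cx3cr1, the receptor of resident macrophages, stood at -0.29, and Trem2 and Marco were not above the floor. The summed intensity of the list was 7221 in CON, 17647 in DSS and 16462 in DSSPAR. In pooled tissue, more cells of a type and more RNA per cell cannot be told apart.

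Neutrophil genes were represented mainly by calprotectin. Of 23 on the array only 9 were measured, and 5 of these were at least 2-fold higher (median 1.26), with Cd177 and the calprotectin pair described above. In CON 3 lay above the floor and in DSSPAR 9, so most were kept through DSSPAR alone and could only stand over CON. Ltf, which encodes the iron-binding lactoferrin of granules, was at least 3.25-fold higher (18.7, 141 and 81.7), and Alox5ap, which presents arachidonic acid for leukotriene synthesis, was 2.39-fold higher (72.9, 228 and 175). The granule enzyme genes Mpo, Elane and Prtn3 and the receptor genes Csf3r and Cxcr2 were not above the floor in CON or DSSPAR. Mmp9 read 31.0 in CON, 61.5 in DSS and 26.0 in DSSPAR. Inflamed epithelium is also known to make calprotectin, and the part of either cell type in these values was not tested. The summed intensity of the neutrophil list was 799 in CON, 4868 in DSS and 4577 in DSSPAR.

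Antimicrobial and mucosal defence proteins were higher in 14 of 25 measured genes and lower in 1, with a median of 1.67. In CON 17 lay above the floor and in DSSPAR 25. The median was 0.96 with the floor at the 75th percentile, where 9 of 22 were higher, and 0.92 without probe sets of shared type, where 8 of 19 were. Lcn2, whose product withholds bacterial siderophores, read 7.62 in CON, 496 in DSS and 114 in DSSPAR and was at least 4.54-fold higher. The acute phase genes Saa3 and Hp were 4.40-fold higher (140.2, 1825 and 616) and at least 3.21-fold higher (10.1, 328 and 80.4). Lyz1, the lysozyme of Paneth cells, was 3.33-fold higher (1222, 4082 and 4072) and Reg4, a lectin of secretory cells, lay just short of 2-fold (1332, 1214 and 2659). The bactericidal lectin genes Reg3g and Reg3b had log2 ratios of 0.92 and -0.09. Mptx1, a mucosal pentraxin, was 2.01-fold lower (4871, 1194 and 2418). The abundant surface proteins Pigr, Zg16 and Lypd8 lay between 0.03 and 0.17. Lcn2, Saa3 and Hp read lower in DSSPAR than in DSS, whereas Reg4 and Retnlb read higher.

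Complement genes included products of macrophages. Of 16 measured, 5 were at least 2-fold higher (median 0.75), and the C1q chains C1qa (3.85-fold higher), C1qb (3.88-fold higher) and C1qc (3.27-fold higher) are macrophage products that stand in both lists. The receptor subunits Itgb2 and Itgax were 2.75-fold higher and 2.56-fold higher. The proteases C1ra, C1s1, C2 and Cfb lay between 0.32 and 0.89, and the protective protein gene Cd59a stood at -0.43. Cathepsins and other lysosomal genes were higher in 5 of 21 (median 0.30). They were Cd68 and Lyz2, which are not proteases, and the cathepsin genes Ctsc 2.15-fold higher (859, 2046 and 1846), Ctsz 2.08-fold higher (972, 2145 and 2021) and the collagen-degrading Ctsk 2.06-fold higher (44.2, 97.8 and 91.2). Other leukocyte lineages had few members past 2-fold. Of 9 dendritic cell markers 1, Itgax, was past 2-fold. Of 9 T and NK cell markers Cd52 (4.10-fold higher, 254, 824 and 1039) and the T cell receptor chain Cd3d (2.03-fold higher, 35.7, 45.4 and 72.4) were, while Cd3e, Cd4, Cd8a, Foxp3 and Ifng were not above the floor. Of these 9 markers 6 read over CON and 3 under (median 0.10), with Zap70 lowest at -0.58 (83.2, 117 and 55.6). Of 15 B and plasma cell genes Ms4a1, which encodes CD20, was 2.15-fold higher (83.3, 185 and 179), and Ighm 2.13-fold higher, with 4 of its 7 probe sets above the floor over CON. The plasma cell genes Jchain and Igha had log2 ratios of 0.29 and 0.06. Of 5 mast cell and eosinophil genes measured, the mucosal mast cell protease gene Mcpt2 was at least 2.23-fold higher (14.9, 52.9 and 56.0), and Kit stood at -0.65. In CON 1 of the 5 lay above the floor and in DSSPAR 5.

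Chemokines were higher in 14 of 27 measured genes and lower in 0, with a median of 1.01 in DSSPAR and 1.16 in DSS. In CON 15 lay above the floor and in DSSPAR 25. With the floor at the 75th percentile 3 of 14 were past 2-fold. Those that draw neutrophils included Cxcl5 at 12.5, 419 and 158 (at least 6.30-fold higher). Cxcl2 read 4.93, 184 and 142 (at least 5.65-fold higher) and Cxcl1 15.5, 240 and 95.4 (at least 3.80-fold higher). Those induced by interferon were Cxcl9, at least 7.34-fold higher (23.2, 493 and 184), Cxcl10, at least 4.13-fold higher (23.1, 221 and 104), and Cxcl11, at least 2.11-fold higher (18.9, 56.0 and 53.1). The other probe set of Cxcl9 stood at a log2 ratio of 0.46. Ccl20, which epithelium releases to draw cells with the receptor CCR6, read 12.8 in CON, 136 in DSS and 189 in DSSPAR and was at least 7.55-fold higher. The B cell chemokine gene Cxcl13 was 5.20-fold higher (106, 1331 and 553) and the eosinophil chemokine gene Ccl11 2.22-fold higher (39.9, 162 and 88.8). Cxcl9, Cxcl5, Cxcl13 and Cxcl1 read far lower in DSSPAR than in DSS, though well over CON, and Ccl20 and Ccl8 read higher. Ccl25 and Cx3cl1 had log2 ratios of -0.61 and -0.40.

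Of 14 interleukins and haematopoietic cytokines measured, 4 were at least 2-fold higher. In CON 8 lay above the floor and in DSSPAR 14. Il1b, the main product of the inflammasome, read 54.2 in CON, 369 in DSS and 293 in DSSPAR and was 5.40-fold higher. Tnf was at least 2.21-fold higher (8.85, 47.4 and 55.5). Il18, which epithelium makes in quantity, was 2.18-fold higher (1466, 2581 and 3202), and Il18bp, its soluble antagonist, at least 2.39-fold higher (24.5, 119.7 and 60.02). Il6, Il10, Il23a, Csf3 and Ifng were not above the floor, and Il15 stood at -0.78. Receptors for these factors were higher in 4 of 27 genes and lower in 1. The tumour necrosis factor receptor gene Tnfrsf1b was 2.64-fold higher (62.4, 240.4 and 165), and the chains Csf2rb and Csf2rb2, shared by receptors for haematopoietic cytokines, were 2.45-fold higher and 2.50-fold higher. These near-identical chains may share probe signal. Osmr, the oncostatin M receptor, was 2.24-fold higher (75.5, 289 and 169), and Il6ra at least 2.11-fold lower (52.96, 41.1 and 20.6).

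Few signalling genes downstream of the receptors were past 2-fold. Of 17 SOCS, STAT and JAK genes, Socs3 was past 2-fold higher and Socs2, a feedback gene of growth hormone signalling, past 2-fold lower (467, 240.4 and 232), with a median of -0.07 that became 0.21 with arrays centred on their medians. Stat3 stood at -0.08, and Stat2, of the interferon-activated complex, at 0.52. Of 20 NF-kappaB genes 4 were higher (median 0.26). They were Zc3h12a, an RNase that destroys cytokine messages, 2.77-fold higher (40.4, 125 and 112), the inhibitor genes Nfkbie (2.09-fold higher) and Nfkbib (2.04-fold higher), and Nfkbiz of the same gene family. Nfkbiz was 2.47-fold higher on 1 probe set, with the other 2 above the floor under CON. With the mean over probe sets 0 members of this list were past 2-fold higher. The subunits Rela and Relb stood at -0.06 and -0.04. Of 22 Toll-like receptor and inflammasome genes 5 were higher (median 0.45), and 3 of these, Lbp, Cd14 and Ly96 (2.06-fold higher, 75.5, 102 and 156), serve recognition of lipopolysaccharide. Casp4, the caspase that lipopolysaccharide activates within cells, was 2.25-fold higher (210.1, 463 and 473). The receptor genes Tlr4 and Tlr2 had log2 ratios of 0.42 and -0.24.

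Interferon-stimulated genes were higher in 20 of 36 measured genes and lower in 0, with a median of 1.10 in DSSPAR and 1.19 in DSS. With a floor raised to the 75th percentile 13 of 32 were higher. Iigp1, Gbp2, Igtp and Gbp3 encode guanosine triphosphatases that guard against intracellular microbes. Iigp1 had the largest ratio of the list and read 136 in CON, 1136 in DSS and 635 in DSSPAR and was 4.67-fold higher. Gbp2 read 171 in CON, 1103 in DSS and 667 in DSSPAR and was 3.90-fold higher, Igtp read 101, 553 and 364 and was 3.61-fold higher, and Gbp3 read 59.4, 239 and 196 and was 3.30-fold higher. In each of the 4 genes DSSPAR lay between CON and DSS. Zbp1, a sensor of nucleic acids, was 4.44-fold higher (55.7, 293 and 247). Ifitm1 and Ifitm3, which block entry of viruses, were 4.10-fold higher (201, 1436 and 824) and 2.98-fold higher (579.9, 2666 and 1731). Of the genes for sensing and destroying viral RNA, Oasl2 was 4.20-fold higher (44.0, 190.4 and 185), Ifit2 4.05-fold higher (62.3, 349.9 and 253) and Usp18, which curbs interferon signalling, at least 4.30-fold higher (19.6, 101 and 108). The transcription factor genes Irf1, Irf9 and Irf7 had log2 ratios of 0.87, 0.63 and 0.05.

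The promoters of these genes were searched for the interferon-stimulated response element, written GAAANNGAAA and read on both strands, in the 250 bases before and 50 after the gene start (RefSeq, GRCm38.p6). The element was present in 3.49% of 27025 promoters and in 3.04% of the 9522 promoters of measured genes. It was present in 10.5% of 332 promoters of genes at least 2-fold higher and in 2.16% of 185 of genes at least 2-fold lower. Of 28 interferon-stimulated genes that have a promoter listed, 15 held it (53.6%), and of the 15 that were at least 2-fold higher 11 did (73.3%). The gamma-activated site, TTCNNNGAA, was present in 8.47% of all promoters and in 11 of the 28, and spans of both motifs overlapped in 21 of the 139 promoters that held both. A match describes letters only. Oasl2, Ifitm1 and Ifit2, which had the largest ratios among members with a promoter listed, held 0 copies of the interferon-stimulated response element. Ifi47, whose ratio of 1.59 was just over that of Ifitm3, also held 0. Of 4 higher MHC class I presentation genes with a promoter listed 0 held it. The promoters of 4 members with a large ratio are shown because they carry this element near the gene start, and capitals mark it. In Gbp2 (chr3:142620413-142620712, plus strand) it begins 59 bases before the start and in Igtp (chr11:58199306-58199605, plus strand) 34 bases before. In Gbp3 (chr3:142559794-142560093, plus strand) overlapping copies begin 45 and 39 bases before. In Ifitm3 (chr7:141010695-141010994, minus strand) copies begin at bases 3 and 20 of the transcript.
Gbp2: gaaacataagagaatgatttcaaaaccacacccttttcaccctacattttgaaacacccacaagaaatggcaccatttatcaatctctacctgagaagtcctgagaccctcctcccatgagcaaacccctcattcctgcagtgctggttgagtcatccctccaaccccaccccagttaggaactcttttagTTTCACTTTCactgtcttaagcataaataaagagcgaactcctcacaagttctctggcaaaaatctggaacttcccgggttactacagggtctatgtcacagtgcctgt
Igtp: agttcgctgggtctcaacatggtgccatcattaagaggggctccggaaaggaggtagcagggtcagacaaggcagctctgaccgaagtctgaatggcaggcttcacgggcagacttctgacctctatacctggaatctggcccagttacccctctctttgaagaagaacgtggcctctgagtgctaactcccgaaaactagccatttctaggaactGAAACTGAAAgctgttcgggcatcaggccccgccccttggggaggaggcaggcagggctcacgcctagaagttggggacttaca
Gbp3: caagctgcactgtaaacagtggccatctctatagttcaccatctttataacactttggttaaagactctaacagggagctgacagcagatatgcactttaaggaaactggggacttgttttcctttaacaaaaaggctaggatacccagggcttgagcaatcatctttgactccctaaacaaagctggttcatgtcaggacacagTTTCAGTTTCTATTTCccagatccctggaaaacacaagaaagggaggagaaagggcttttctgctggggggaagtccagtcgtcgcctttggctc
Ifitm3: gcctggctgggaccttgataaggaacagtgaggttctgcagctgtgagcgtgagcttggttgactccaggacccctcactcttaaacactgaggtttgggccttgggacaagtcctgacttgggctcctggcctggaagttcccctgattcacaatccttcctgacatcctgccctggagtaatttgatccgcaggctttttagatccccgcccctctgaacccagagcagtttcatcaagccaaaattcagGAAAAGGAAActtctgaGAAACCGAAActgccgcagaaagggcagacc

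Antigen presentation genes read over CON in 14 of 17 of class I and 10 of 11 of class II. Of the class I genes 5 were at least 2-fold higher (median 0.48). They were Nlrc5, the transactivator of class I genes, 4.31-fold higher (25.9, 148 and 112), the peptide carrier Tap1, 3.30-fold higher (65.6, 248 and 216), and the immunoproteasome subunits Psmb9 (2.87-fold higher), Psmb8 (2.76-fold higher) and Psmb10 (2.06-fold higher). The class I heavy chains H2-K1 and H2-D1 had log2 ratios of 0.24 and 0.02, and their light chain B2m 0.72. The class I gene H2-Q2 lay furthest under CON at -0.80 (814, 291 and 468). Heavy chain genes are near-identical, so probe sets may read more than 1 of them. Of 11 class II genes 2 were past 2-fold, H2-DMa, which loads peptides, 2.66-fold higher (47.3, 146 and 126), and H2-Eb1, 2.02-fold higher (571, 1155 and 1151). The median of class II genes was 0.78, with H2-Aa at 0.94, the invariant chain Cd74 at 0.57 and the transactivator Ciita at -0.07. The macrophage markers, whose summed intensity is given above, moved with these genes, and their part was not tested.

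Enzymes that make oxidants were higher in 5 of 11 genes (median 0.89). The phagocyte oxidase subunits Cybb, 2.76-fold higher (74.4, 275 and 205), and Cyba, 2.11-fold higher (427, 921 and 899.8), were among them, with their regulator Rac2, 2.42-fold higher (29.8, 98.0 and 72.2). The lowest of the 3 probe sets of Cybb stood at 0.15. Xdh, xanthine oxidoreductase, was 2.57-fold higher (199, 660.3 and 511), and Duoxa2, the partner of the epithelial dual oxidase, at least 2.02-fold higher. Nos2 was not above the floor. Of 19 genes of prostaglandins and leukotrienes 4 were higher (median 0.07, or -0.03 with the median of genes of like length subtracted). Pla2g5 and Pla2g10, secreted phospholipases that release arachidonic acid, were 4.01-fold higher (60.6, 151 and 243) and 2.06-fold higher (916, 1184 and 1882). Ptgs2, the inducible cyclooxygenase, read 45.7 in CON, 301 in DSS and 119.5 in DSSPAR and was 2.62-fold higher. Hpgd, which inactivates prostaglandins, stood at -0.95 (2400, 912 and 1246).

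Matrix metalloproteinases and their inhibitors were higher in 5 of 14 genes. In CON 9 lay above the floor and in DSSPAR 14. Mmp13 read 29.2 in CON, 746 in DSS and 154 in DSSPAR and was 5.27-fold higher. Mmp3 was at least 4.23-fold higher (17.6, 482 and 106), Mmp10 at least 3.43-fold higher (11.3, 312 and 86.0) and the inhibitor gene Timp1 at least 2.74-fold higher (21.7, 139 and 68.8). In each of the 4 genes CON was low, DSSPAR intermediate and DSS high. Timp3 and Mmp14 stood at -0.76 and -0.52. The list median was 0.37, and -0.06 with the floor at the 75th percentile, where low members drop out and 0 of 6 were past 2-fold. Fibroblast and matrix genes held 1 of 26 past 2-fold, Col18a1 (2.01-fold higher, 70.2, 271 and 141), with a median of 0.35 in DSSPAR and 0.97 in DSS. The proteoglycan genes Lum and Dcn had log2 ratios of 0.96 and 0.73, and the collagen genes Col1a1 and Col3a1 0.11 and 0.25. Of 19 endothelial genes the adhesion molecules Vcam1, 3.09-fold higher (78.7, 386 and 244), and Icam1, 2.18-fold higher (39.1, 133 and 85.3), were past 2-fold. The lowest of the 3 probe sets of Vcam1 stood at 0.43. The lineage genes Pecam1, Cdh5 and Kdr lay between -0.15 and 0.10.

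Genes of the nerve plexus and of muscle read mostly under CON, few of them past 2-fold. Of 17 enteric neuron and glia genes measured, 16 read under CON and 0 were past 2-fold, with a median of -0.54 in DSSPAR and -0.05 in DSS. Gap43, a protein of growing axons, read 49.6 in CON, 55.8 in DSS and 23.1 in DSSPAR, and the neurofilament gene Nefl read 62.1 in CON, 49.1 in DSS and 31.4 in DSSPAR. Snap25, of the vesicle fusion machinery, read 98.5 in CON, 119 in DSS and 56.4 in DSSPAR, and Nos1, the neuronal nitric oxide synthase, 78.8 in CON, 63.8 in DSS and 49.0 in DSSPAR. For Gap43 and Snap25 DSSPAR was low while DSS was not under CON. Vip, the vasoactive peptide, read 342 in CON, 654 in DSS and 435 in DSSPAR. The glial gene S100b had a log2 ratio of -0.48, and Gfap and Sox10 were not above the floor. The median stayed between -0.62 and -0.30 under the other settings that gave a value. Of 19 smooth muscle genes 2 were at least 2-fold lower. They were Myocd, the coactivator of contractile genes, 2.50-fold lower (68.8, 49.9 and 27.5), and Pln, a regulator of the calcium pump, 2.29-fold lower (159, 59.5 and 69.5). Synm, Synpo2, Myh11 and Des lay between -0.96 and -0.64, whereas Acta2, Tagln and Myl9 lay between -0.04 and 0.13. The muscle median was -0.26 and turned to 0.02 with arrays centred on their medians.

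Gene length moved with the ratio over the whole array. Across 11789 genes with a length in the RefSeq table the Spearman correlation between length and log2 ratio was -0.21, as a description over genes of the same 2 arrays. Among 1438 genes of at most 5 kb, 109 (7.58%) were at least 2-fold higher and 26 (1.81%) lower. Among 3246 genes over 50 kb, 44 (1.36%) were higher and 97 (2.99%) lower. With the median of each length bin subtracted, the neuron and glia median was -0.59, that of smooth muscle -0.30 and that of oxidative phosphorylation genes, which are short, 0.23.

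**Figure D4:**
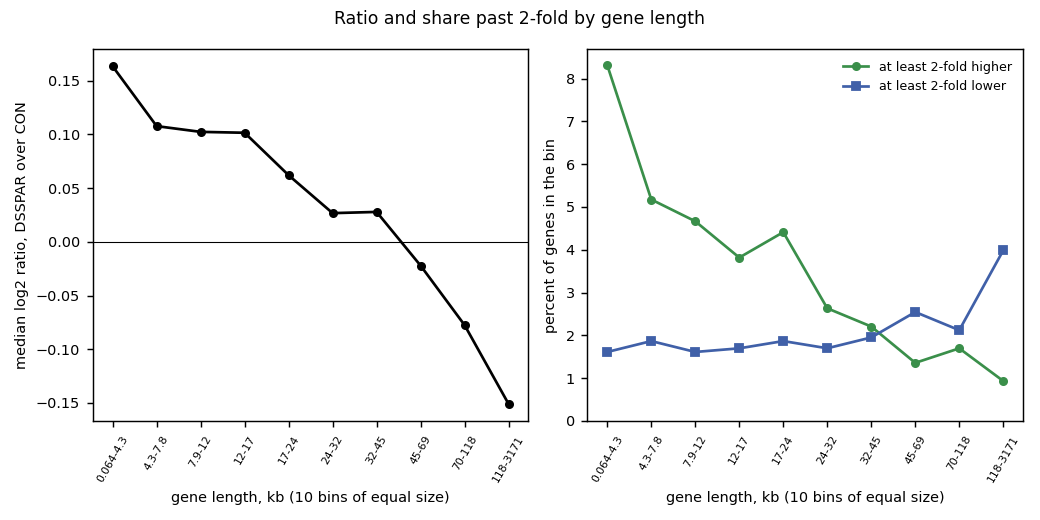
Measured genes of known length in 10 bins of equal size from short to long (x axis, kb), with the median log2 ratio of DSSPAR over CON on the left and the percent of genes at least 2-fold higher (green) or lower (blue) on the right, all from 1 pooled array per group. The median runs from 0.16 in the shortest bin to -0.15 in the longest, and the percent higher from 8.31 to 0.93.

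Absorptive colonocyte genes lay on both sides of CON. Of 28 measured, 3 were at least 2-fold higher and 7 lower, and the median of 0.07 changed sign with quantile normalization, with the mean over probe sets and without shared-type probe sets. Beside Clca4b the higher genes were its relative Clca4a, 2.74-fold higher (562, 2496 and 1537), and the water channel gene Aqp8, 2.75-fold higher (1346, 2411 and 3704). Clca4a and Clca4b are close copies whose signals may be shared. Below CON were Alpi, the intestinal alkaline phosphatase, at least 4.40-fold lower (110.4, 19.9 and 24.8), and Fabp2, the fatty acid binding protein of enterocytes, 3.59-fold lower (2092, 297 and 583). Emp1 was 3.42-fold lower (2203, 1156 and 644), the brush border metalloprotease gene Mep1a 2.88-fold lower (1208, 313 and 419.8) and Guca2a, which encodes the salt-regulating peptide guanylin, 2.56-fold lower (3754, 1452 and 1465). Slc26a3 had a log2 ratio of -0.04 (6106, 4860 and 5955). Keratins and brush border genes held 0 of 20 past 2-fold, with 11 over CON and 9 under (median 0.07). Krt20, Vil1, Krt8 and Epcam lay between 0.08 and 0.58, with Krt23 at 0.93 and Muc13 at 0.89. Ezr stood at -0.57 (2426, 1817 and 1638), and its other probe set at 0.22.

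Genes of salt and water transport were mostly under CON, with exceptions among water channels. Of 30 carriers and channels for sodium, potassium and chloride 22 read under CON and 2 were past 2-fold lower, with a median of -0.16 that became 0.12 with arrays centred on their medians. Slc4a4, a sodium bicarbonate carrier, read 493 in CON, 164 in DSS and 169 in DSSPAR and was 2.91-fold lower. Ano1, a calcium-activated chloride channel, read 1466 in CON, 785 in DSS and 589 in DSSPAR and was 2.49-fold lower. The sodium channel subunit gene Scnn1g, the exchanger genes Slc9a2 and Slc4a2 and Cftr lay between -0.95 and -0.59. Atp12a, the proton pump of the distal colon, stood at 0.71 (2801, 3258 and 4568). Among 13 carbonic anhydrases and aquaporins, Aqp4 was 3.05-fold higher (1195, 3290 and 3650) together with Aqp8, while Car8, an anhydrase relative without that activity, was 4.55-fold lower (487, 121 and 107) and the endothelial water channel gene Aqp1 2.13-fold lower (291, 166 and 137). Car1 stood at -0.99 and Car4 at 0.48.

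Of 9 measured genes in the bile acid group, which also holds the sulphate carrier gene Slc13a1, 4 were at least 2-fold lower and 1 higher. In CON 9 lay above the floor and in DSSPAR 6. The lower genes were Slc51a, Slc10a2, Slc13a1 and the receptor gene Fgfr4, 2.04-fold lower (61.3, 40.1 and 30.0), of whose 3 probe sets above the floor 2 were under CON and which lost its place past 2-fold when arrays were centred on their medians. Fabp6, the cytosolic bile acid binding protein, read 135 in CON, 168 in DSS and 356 in DSSPAR and was 2.64-fold higher. The exporter subunits thus parted, with Slc51a under the floor and Slc51b at a log2 ratio of 0.58 (251, 294 and 375). The bile acid receptor gene Nr1h4 stood at 0.12. The median of -0.39 turned to 0.12 with the mean over probe sets and was -0.048 with the floor at the 75th percentile. Of 20 carriers of short-chain fatty acids, sugars, amino acids and vitamins 1 was past 2-fold, the cystine carrier gene Slc7a9, 3.61-fold higher (186, 397 and 670.3). The butyrate carrier genes Slc5a8 and Slc16a1 had log2 ratios of -0.05 and 0.18.

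Cytochrome P450 genes were lower in 6 of 23 and higher in 1. Beside Cyp2c65, Cyp4b1 and Cyp2c55, Cyp11a1, the enzyme that starts steroid synthesis, was 3.70-fold lower (149, 16.1 and 40.4), Cyp2d26 was 3.32-fold lower (607, 95.7 and 183) and Cyp2s1 2.39-fold lower (449, 169 and 187). Cyp2d9 was 2.11-fold higher (231, 409 and 487). The Cyp2c and Cyp2d genes form families of similar sequence, so their probe sets may share signal. The median was -0.25 in DSSPAR, 0.04 with arrays centred on their medians, and -0.63 in DSS. Of 29 conjugating enzymes, esterases and exporters 29 lay above the floor in CON and 25 in DSSPAR. In this group 9 were lower and 0 higher, with a median of -0.47, and 5 with arrays centred on their medians. Beside Ugt2b5 and Ces1g they included the esterase gene Ces1d, 5.09-fold lower (497, 116 and 97.6), the monooxygenase gene Fmo5, 2.56-fold lower (205, 46.2 and 79.8), and Sult1a1, the phenol sulphotransferase, 2.29-fold lower (3313, 682 and 1448). Sult1a1, Cyp2c55 and Cyp2d26 read higher in DSSPAR than in DSS, though both lay under CON. The efflux pump genes Abcg2 and Abcb1a stood at 0.71 and -0.74. Of the genes that the aryl hydrocarbon receptor induces, Cyp1a1, Cyp1a2, Cyp1b1 and Ahrr were not above the floor, and Tiparp and Nqo1 had log2 ratios of 0.17 and 0.52.

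Genes of glutathione and of the NRF2 response, which protects cells against electrophiles and oxidants, were higher in 6 of 48 and lower in 1, and 37 read over CON (median 0.38 in DSSPAR and 0.06 in DSS). Gsta3, a glutathione transferase, read 64.8 in CON, 178 in DSS and 245 in DSSPAR and was 3.78-fold higher. Cbr3, a carbonyl reductase, read 205 in CON, 359 in DSS and 695 in DSSPAR and was 3.40-fold higher. Gpx2, the glutathione peroxidase of the gut epithelium, read 1456 in CON, 5344 in DSS and 4801 in DSSPAR and was 3.30-fold higher. For Gsta3 and Cbr3 DSSPAR read highest of the 3 arrays, and for Gpx2 DSS did. Hmox1, haem oxygenase, was at least 2.42-fold higher (14.1, 46.1 and 60.6), the aldose reductase relative Akr1b8 2.29-fold higher (351, 809 and 805) and Gpx8 2.06-fold higher (65.1, 129 and 134). The classical targets Nqo1, Gclm, Gclc and Srxn1 lay between -0.02 and 0.52, the regulators Nfe2l2 and Keap1 at -0.35 and -0.87, and Cat, catalase, at -0.82. Aldh1a1, a retinal dehydrogenase, was 3.49-fold lower (977, 232 and 280.1). The antioxidant response element, TGACNNNGC on either strand, was present in 12.5% of all promoters, in 14.8% of those of measured genes and in 8 of the 42 members with a promoter in the table (19.0%). Among 5 higher members with a promoter, Gsta3 alone held it. Its promoter (chr1:21240335-21240634, plus strand, RefSeq, GRCm38.p6) is shown for that reason, with the element in capitals 121 bases before the start.
Gsta3: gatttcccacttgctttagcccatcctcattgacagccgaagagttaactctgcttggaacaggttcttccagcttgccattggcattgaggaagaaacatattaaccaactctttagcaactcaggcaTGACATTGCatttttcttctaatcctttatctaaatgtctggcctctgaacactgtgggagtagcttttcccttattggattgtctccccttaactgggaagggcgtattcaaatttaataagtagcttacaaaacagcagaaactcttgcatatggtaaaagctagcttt

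Genes of oxidative phosphorylation were slightly over CON together. Of 47 measured, 44 read over CON and 0 were past 2-fold, with a median of 0.30 in DSSPAR and 0.09 in DSS. Uqcrq, of the third complex of the chain, read 1275 in CON, 1981 in DSS and 2452 in DSSPAR, and Ndufs4, of the first, read 537 in CON, 709.9 in DSS and 955 in DSSPAR. Ndufb3 read 906 in CON, 1067 in DSS and 1562 in DSSPAR. In all of these DSSPAR was highest. The ATP synthase subunit gene Atp5b stood at -0.15, and the median stayed over 0 under each other setting, between 0.10 and 0.58. Of 31 genes of fatty acid oxidation 2 were past 2-fold, both lower, Acaa1b and the receptor gene Ppara, 2.58-fold lower (135, 44.7 and 52.3), and the median of -0.05 turned to 0.23 with arrays centred on their medians and to 0.02 with arrays centred on the probe sets above the floor. Ppargc1a, the coactivator of mitochondrial genes, stood at -0.73 and the carrier Cpt1a at -0.37, whereas Acadl stood at 0.71.

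Cholesterol genes were higher in 3 of 23 and lower in 0 (median 0.44). Abcg5, a sterol exporter, was 2.75-fold higher (74.9, 129 and 206). The enzymes Fdps and Msmo1 were 2.55-fold higher (326, 787 and 832) and 2.12-fold higher (894, 1646 and 1895), and Cyp51, Nsdhl, Idi1 and Fdft1 lay between 0.60 and 0.78. The other probe set of Msmo1 stood at 0.006. Of 30 genes of fatty acid and triglyceride synthesis 1 was past 2-fold, Gpam, the first acyltransferase of the pathway, 2.05-fold lower (539, 256 and 263), with a list median of -0.06 that turned to 0.22 with arrays centred on their medians and to 0.01 with arrays centred on the probe sets above the floor. The lipid droplet gene Plin2 stood at 0.73. Of 28 glycolysis and hypoxia genes, Hk2 was 2.58-fold higher (638, 1854 and 1645) and Pfkfb3 at least 2.42-fold higher (24.2, 80.6 and 60.8), while Hkdc1, another hexokinase, was 6.42-fold lower (218, 25.8 and 34.0) and Pck1, of glucose synthesis, stood at -0.99. The list median was 0.30.

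Nuclear receptor genes read under CON in 21 of 27 (median -0.37), and 1, Ppara, was past 2-fold. The mineralocorticoid receptor gene Nr3c2, the vitamin D receptor gene Vdr and Hnf4g lay between -0.77 and -0.57, and Hnf4a stood at 0.01. Retinoid genes held 2 higher and 2 lower of 19. The retinol dehydrogenase genes Rdh16 and Rdh9 were 3.71-fold higher (65.9, 241 and 244) and 2.70-fold higher (247, 679 and 666), relatives whose probe sets may share signal. Isx, the homeobox gene that limits carotenoid uptake, was 3.05-fold lower (189, 98.4 and 62.1), with Aldh1a1 as given above. Of 12 tryptophan genes, Ido1, which opens the kynurenine pathway, was 2.00-fold higher (106, 383 and 211) and Kyat1 2.38-fold higher, with 3 of its 4 probe sets above the floor over CON. Metal genes were higher in 4 of 23 (median 0.12). Trpv6, the calcium channel of the apical membrane, read 29.0 in CON, 67.3 in DSS and 109.6 in DSSPAR and was 3.77-fold higher, and the metallothionein genes Mt1 and Mt2 were 3.01-fold higher (1518, 3317 and 4566) and 2.50-fold higher (817, 2008 and 2043). Cp, ceruloplasmin, was 2.34-fold higher (89.5, 309 and 209.7). Trpv6 and Mt1 read higher in DSSPAR than in DSS.

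Few stress genes were past 2-fold. Of 29 unfolded protein response genes 24 read over CON and 2 were past 2-fold (median 0.35), Creld2, 2.35-fold higher (154, 374 and 362), and Manf, 2.17-fold higher (639.7, 1347 and 1386), both of the endoplasmic reticulum. The chaperone gene Hspa5 stood at 0.70 and Ddit3 at -0.13. Ern2, the stress sensor of mucous cells, stood at -0.79. Of 16 heat shock genes Hspe1 was 2.21-fold higher (639, 1421 and 1410), and the inducible genes Hspa1a and Hspa1b stood at -0.19 and -0.22 (list median 0.24). Of 26 immediate early genes Jund was 2.56-fold lower (2014, 1218 and 787), with Fos at -0.38, Egr1 at -0.11 and a median of -0.16 that became 0.11 with arrays centred on their medians. Of 18 p53 target genes Fas was 2.04-fold higher (76.9, 129 and 157), with Cdkn1a at -0.23 and a median of -0.03 that was over 0 under 3 settings. Of 17 clock genes 0 were past 2-fold. Their median was -0.10, or 0.18 with arrays centred on their medians, with Dbp at -0.62 and Per3 at -0.52.

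Proliferation genes stood over CON in 36 of 40, with 9 at least 2-fold higher and 0 lower (median 0.76 in DSSPAR and 1.18 in DSS). Birc5, which encodes survivin, read 96.9 in CON, 522 in DSS and 403 in DSSPAR and was 4.16-fold higher. Cdk1, the kinase of mitosis, read 143 in CON, 472 in DSS and 394 in DSSPAR and was 2.75-fold higher, and Cdca3, a trigger of mitotic entry, was 2.76-fold higher (172, 505 and 476). The mitotic genes Kif20a, Melk, Ccna2, Ccnb2, Cdc20 and Ttk were 2.04-fold to 2.41-fold higher. Mki67 stood at 0.80 (380.3, 813 and 660.2), and of the replication genes Pcna stood at 0.66 and Mcm2 at -0.16. All 40 read lower in DSSPAR than in DSS. The share of all measured genes that did so is not given here, so this count has no background. Of the 415 genes at least 2-fold higher than CON, 190 read higher in DSSPAR than in DSS. The median intensity of the whole array was 22.5 in DSSPAR and 25.7 in DSS, on either side of the floor of 25.1, and the trimmed mean 110.3 and 111. Of 47 oxidative phosphorylation genes 43 read higher in DSSPAR than in DSS and 4 lower. The part of array level in the proliferation values was not tested. With the mean over probe sets the median was 0.44, and with arrays centred on their medians 24 were past 2-fold.

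Genes of crypt stem cells and of Wnt signalling read mostly under CON. Of 22 measured, 6 were at least 2-fold lower, 0 higher and 20 read under CON, with a median of -0.56 in DSSPAR and -0.37 in DSS. With arrays centred on their medians 2 stayed past 2-fold, Lgr5 and Cdk6, while Ascl2, Nkd1, Sox9 and Znrf3 did not, and with the floor at the 75th percentile 1 was past it. Lgr5, the receptor that marks crypt base stem cells, read 101 in CON, 34.9 in DSS and 29.1 in DSSPAR and was 3.47-fold lower. Ascl2, their transcription factor, read 63.2 in CON, 46.3 in DSS and 29.1 in DSSPAR and was 2.17-fold lower. Sox9 was 2.27-fold lower (179.9, 96.0 and 79.4) and Cdk6 2.53-fold lower (263, 130.4 and 104). The feedback inhibitors Nkd1 and Znrf3 were at least 2.18-fold lower (54.7, 53.6 and 24.2) and 2.01-fold lower (150, 84.3 and 74.6), with Axin2 at -0.95. Lgr4 stood at 0.13, and Olfm4 was not above the floor. For Lgr5, Ascl2 and Sox9 CON was highest and DSSPAR lowest.

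Genes of regenerating epithelium were higher in 4 of 25 (median 0.23). Ly6d was 3.12-fold higher (40.5, 125 and 126), the plasminogen activator gene Plat 2.59-fold higher (59.6, 161 and 154) and Anxa1, an anti-inflammatory annexin, 2.30-fold higher (1575, 3410 and 3617). Among the ligands of the epidermal growth factor receptor, Ereg read 46.5 in CON, 425 in DSS and 131 in DSSPAR and was 2.82-fold higher, whereas Tgfa, Hbegf and Btc lay between 0.01 and 0.08. The receptor genes Egfr, Erbb2 and Erbb3 stood at 0.23, -0.22 and -0.28. Squamous epithelial genes, which mark the anal end of the bowel, were higher in 4 of 15 and lower in 1 (median 0.61). In CON 8 of the 15 lay above the floor and in DSSPAR 15. Of the near-identical keratin genes, Krt6b was at least 3.34-fold higher and Krt6a at least 2.37-fold higher, and the cornified envelope genes Sprr1a and Sprr2h 3.20-fold higher (29.7, 105 and 95.1) and at least 2.78-fold higher. The basal keratin gene Krt14 was 3.95-fold lower (138, 45.0 and 34.9), and Trp63, which defines that layer, was not above the floor. The summed intensity of this list was 1642 in CON, 2421 in DSS and 2312 in DSSPAR, and its part in other results was not tested.

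Goblet cell genes lay on both sides of CON. Of 34 measured, 3 were at least 2-fold higher and 2 lower (median 0.05). Beside Retnlb, the secreted protease inhibitor gene Spink4 was 3.12-fold higher (2392, 5187 and 7452), with Reg4 at a log2 ratio of 1.00 and Fcgbp at 0.46. The cell-surface mucin gene Muc1 was 4.18-fold higher (27.9, 107 and 117), and the gel-forming mucin gene Muc2 stood at -0.22 (7984, 6761 and 6874). The transcription factor genes Atoh1 and Spdef stood at -0.49 and -0.60. Of the enzymes that build mucin sugars, B3gnt6 was at least 3.92-fold lower (98.5, 22.1 and 18.8) and Gcnt3 2.32-fold lower (1228, 418 and 529). Junction genes held 0 of 30 past 2-fold, from -0.71 for Cldn23 to 0.29 for Gja1, with Tjp1 at 0.09, Ocln at -0.25 and the pore-forming claudin gene Cldn2 at -0.52. Protease inhibitor genes were higher in 4 of 16 with 0 under CON (median 0.77). Slpi, Wfdc18 and Spink4 were 3 of these, and Serpina3n was at least 4.56-fold higher (9.70, 314 and 114).

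Among 20 measured genes of enteroendocrine and tuft cells 4 stood at least 2-fold higher and 2 lower, and 11 read over CON and 9 under (median 0.01). The 4 higher genes were those of peptide hormones and transmitters. Insl5, a peptide of colonic L cells, read 649 in CON, 1894 in DSS and 2863 in DSSPAR and was 4.41-fold higher. Gcg, the precursor of the glucagon-like peptides, read 275 in CON, 508 in DSS and 747 in DSSPAR and was 2.71-fold higher. Pyy, which slows transit, read 810.1 in CON, 2154 in DSS and 2141 in DSSPAR and was 2.64-fold higher. Tac1, the precursor of substance P, read 355 in CON, 1679 in DSS and 1349 in DSSPAR and was 3.80-fold higher, a gene that enteric neurons also express. Ppy, named above, was not in this list. For Insl5 and Gcg DSSPAR was highest. Nts, a hormone gene found towards the small bowel, lay on the other side (186, 19.1 and 20.2), and Rgs13, a gene of tuft cells, was 3.22-fold lower (87.8, 13.9 and 27.3). The somatostatin gene Sst read 101 in CON, 86.2 in DSS and 63.6 in DSSPAR, a log2 ratio of -0.67. The granule genes Chga and Chgb stood at -0.48 and -0.46.

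Positional genes of the gut tube were lower in 3 of 22, with a median of -0.20 that became 0.08 with arrays centred on their medians. The intestinal master gene Cdx2 read 655 in CON, 294 in DSS and 206 in DSSPAR and was 3.18-fold lower, whereas Cdx1 stood at -0.16. Hoxb6 and Hoxd8, of the middle of their clusters, were at least 7.07-fold lower (177, 16.0 and 19.7) and 2.65-fold lower (66.8, 37.7 and 25.3), and Hoxd9 and Hoxb4 stood at -0.92 and -0.86. The posterior genes Hoxb13, Hoxd13 and Hoxa13 read 1206, 1440 and 1595, 538, 580.1 and 592 and 43.5, 34.8 and 40.4, with log2 ratios of 0.40, 0.14 and -0.11. Genes named above that are known for expression in the small bowel went both ways. Slc10a2, Slc51a, Fabp2 and Nts were at least 2-fold lower, and Fabp6, Lyz1, Slc7a9 and Abcg5 were at least 2-fold higher. These are examples from the genes named and not a full list. The stretch of colon that was sampled is not given in the sources used here, and its part in these values was not tested.

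**Figure D5:**
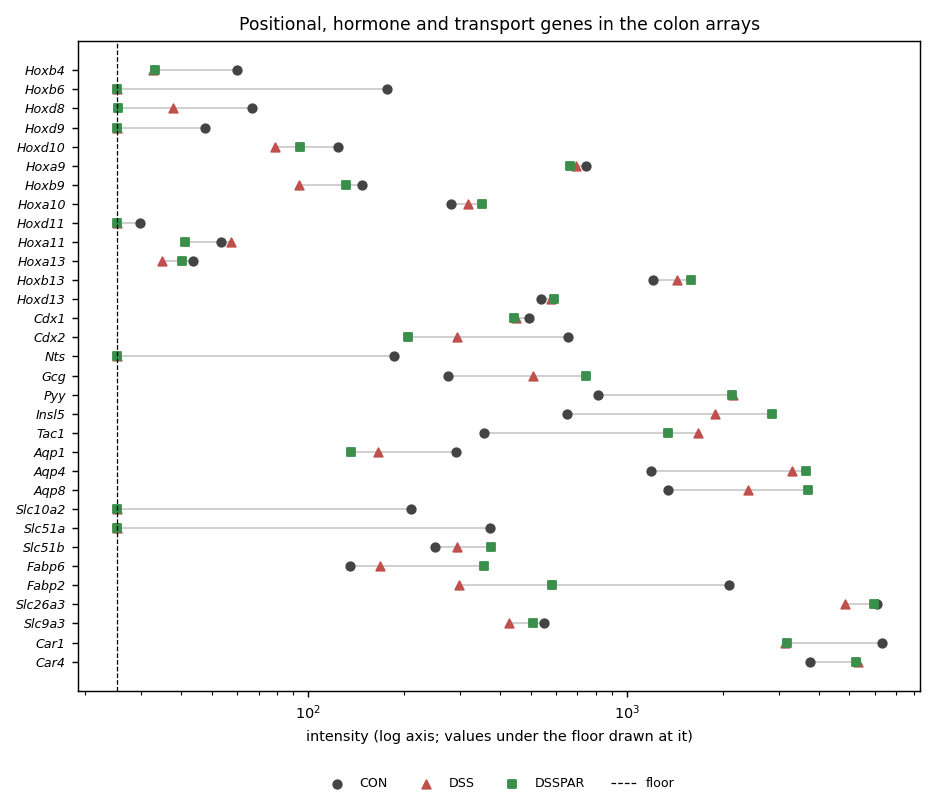
Intensities on a log axis of positional, hormone, water channel and carrier genes in the CON (circle), DSS (triangle) and DSSPAR (square) colon arrays, each point 1 pooled array and the dashed line the floor of 25.1. Hoxb6, Nts, Slc10a2 and Slc51a reach the floor with polymer and Hoxb13, Gcg, Pyy and Insl5 lie over CON.

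Markers of fat and pancreas, tissues that may lie against the colon, held 0 genes past 2-fold between DSSPAR and CON. Of 7 adipocyte markers measured 0 were past 2-fold, with Fabp4 just short at 0.99, Pck1 at -0.99 and Adipoq at 0.16 (28.3, 82.5 and 31.6) (median 0.16). Of 14 exocrine pancreas genes on the array 9, among them Prss2, Cpa1, Ctrb1 and Cel, were not above the floor in CON or DSSPAR though all were in DSS, and 0 of the 5 measured were past 2-fold (median -0.07, or 0.21 with arrays centred on their medians). The 5 were Sycn, Cela1, Zg16, Clps and Cela3b. Sycn, Cela1 and Zg16 were bright in each colon array, and their source tissue was not tested. The haemoglobin gene Hba-a1 was not above the floor in CON or DSSPAR.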

How the data were processed

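RNA of 6 pools of 7 mice, 15 µg each, was labelled and read on Affymetrix Mouse Genome arrays, 1 array per group and tissue. The deposited values are linear intensities, 1 per probe set and array, made by the authors with MAS5 per the submitters' processing notes, and neither its version nor the target of its scaling is known here. Groups came from the sample labels, every column was matched to a sample, and 0 columns were left unused. The units are those of the deposited file, so differences in array scaling, ribosomal RNA control signal and transcript length pass into the ratios.

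Of 45101 probe sets, 34958 carried 1 symbol, 932 several and 9211 were not listed in the platform annotation. Of those with 1 symbol 34754 were found by Entrez identifier and 0 symbols were updated. The brightest probe set over the 3 colon arrays stood for a gene. Intensities under the 50th percentile of the 3 colon arrays were raised to it, and the fold threshold was 2. Pairs of probe sets of 1 gene differed in log2 ratio with a robust spread of 0.30 over 5195 genes, which covers neither pools nor arrays. No test was run, since 1 array per group leaves no residual degrees of freedom, and precision rests on the number of arrays.

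The 61 gene groups and the members named were chosen with earlier results of these data known. Named genes were the 15 highest and 15 lowest whose stronger array reached the 60th percentile of intensities and whose probe sets over the floor shared a side of CON, with predicted models left unnamed, and in each group its anchor, up to 6 members of largest ratio and members that place a subgroup. Alternatives were a higher floor (75th percentile) or none, centring of each array on its median or on bright probe sets, quantile normalization, the mean over probe sets, no shared-type probe sets (identifiers ending in _s_at, _x_at or _a_at), length bins subtracted, a 3-fold threshold and agreement of all probe sets. Lengths and promoters are RefSeq's (GRCm38.p6). The counting of genes past the threshold was run on simulated data with large planted changes in bright genes and little noise. That run checks the code only and gives no error rate for the counts. Python 3.11.15, NumPy 2.4.6, pandas 2.3.3, SciPy 1.17.1 and matplotlib 3.10.9 were used.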

Additional observations from a re-analysis of the deposited data

Results flagged for a closer look

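For 6 of the 183 named genes past 2-fold in colon, DSSPAR stood on opposite sides of CON in colon and in liver, past 2-fold in both tissues. Genes not above the liver floor could not be among them, and the share over all genes is not given here. Others went the same way in both tissues. S100a8, S100a9, Lrg1, Socs3 and Lbp, for example, were also past 2-fold higher in liver, with log2 ratios there of 3.89, 2.77, 2.12, 1.12 and 2.51. Each tissue gave 1 array per group, the tissues' arrays were scaled apart, and the difference between the tissues was not tested. Wfdc18 had a log2 ratio of 3.31 in colon and -1.29 in liver, where it read 236 in CON and 64.7 in DSSPAR. Cxcl9, an interferon-induced chemokine, had 2.88 in colon and -1.07 in liver (2036 in CON and 967 in DSSPAR), and its other probe set had 0.46 in colon. The water channel gene Aqp4 had 1.61 in colon and -1.70 in liver (522 and 160.5). Ighm had 1.09 and -1.49, and 4 of its 7 probe sets above the floor lay over CON in colon. In the other direction the bile acid carrier gene Slc10a2 had -3.07 in colon and 1.91 in liver, where it read 150.4 in CON and 565 in DSSPAR. Il6ra had -1.08 in colon and 1.38 in liver (505 and 1316), and its other probe set had -0.22 in colon. The sizes of the colon ratios of Cxcl9, Slc10a2 and Il6ra and of the liver ratio of Wfdc18 are lower bounds.

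The gene counts left out 10092 probe sets with no listed symbol or several, array controls aside. Of these 3568 lay above the floor in CON or DSSPAR of colon. At least 2-fold higher in DSSPAR were 78 of them (2.19%), and 210 were at least 2-fold lower (5.89%). Among the genes measured these shares were 3.51% and 2.10%, so the balance between the directions was the reverse. The units differ, since each of these probe sets counts singly and a gene is read from its brightest. The part of that difference was not tested.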

How the results depend on the processing

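The 415 higher and 248 lower genes became 208 and 87 under a floor raised to the 75th percentile, 890 and 121 after centring each array on its median, and 125 and 63 past 3-fold. Without a floor there were 540 higher and 435 lower. Centring on probe sets above the floor, quantile normalization, the mean over probe sets, no shared-type probe sets, length bins subtracted and agreement of all probe sets gave 328 to 483 higher and 199 to 303 lower genes. Of 183 named genes past 2-fold, 103 of 149 with a value were past it at the higher floor, 170 with arrays centred on their medians, 167 with quantile normalization, 142 of 171 with the mean over probe sets and 165 with length bins subtracted. After centring on array medians the genes no longer past it were Aqp1, Ascl2, Cyp2s1, Fgfr4, Gcnt3, Gpam, Il6ra, Nkd1, Pln, Socs2, Sox9, Sult1a1 and Znrf3. With quantile normalization they were Anxa1, Ascl2, Ctsc, Ctsz, Cyba, Fgfr4, H2-Eb1, Hspe1, Il18, Il6ra, Manf, Msmo1, Nkd1, Pla2g10, Psmb10 and Znrf3. With length bins subtracted they were Cd3d, Ctsk, Ctsz, Cyba, Duoxa2, H2-Eb1, Hspe1, Ido1, Ighm, Ly96, Manf, Msmo1, Nfkbib, Nfkbie, Pla2g10, Psmb10, Tnf and Znrf3. With the mean over probe sets they were Ano1, Anxa1, Ascl2, Ccna2, Cdca3, Cp, Ctsc, Ctsz, Cybb, H2-DMa, Hoxd8, Hspe1, Il6ra, Jund, Kyat1, Ms4a6d, Msmo1, Myocd, Nfkbie, Nfkbiz, Nkd1, Pfkfb3, Plat, Ptgs2, Rac2, Socs2, Sox9, Tnfrsf1b and Zc3h12a. Without shared-type probe sets 156 of 163 stayed past it, and Ano1, Ascl2, Car8, Hspe1, Ighm, Kyat1 and Msmo1 did not.

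Medians of 36 combinations of group and setting changed sign. With arrays centred on their medians the values were 0.21 for SOCS, STAT and JAK genes, 0.017 for smooth muscle, 0.21 for exocrine pancreas, 0.12 for salt transport, 0.045 for P450 genes, 0.26 for aryl hydrocarbon receptor targets, 0.23 for fatty acid oxidation, 0.22 for fatty acid synthesis, 0.11 for immediate early genes, 0.25 for p53 targets, 0.18 for clock genes and 0.083 for Hox genes. With the centre taken over bright probe sets (those above the floor) they were 0.052 for aryl hydrocarbon receptor targets, 0.018 for fatty acid oxidation, 0.0078 for fatty acid synthesis and 0.035 for p53 targets. Length bins gave -0.034 for prostaglandin genes, -0.023 for keratins and brush border, -0.057 for carbonic anhydrases and aquaporins, -0.058 for vitamin and fatty acid carriers, -0.042 for junctions and -0.052 for enteroendocrine genes. The mean over probe sets gave -0.0094 for colonocytes, 0.12 for bile acid genes, -0.15 for those carriers, 0.062 for aryl hydrocarbon receptor targets, -0.036 for junctions, -0.016 for enteroendocrine genes and 0.031 for p53 targets. Quantile normalization gave -0.14 for keratins and brush border, -0.035 for colonocytes and -0.16 for junctions. Without shared-type probe sets colonocytes gave -0.038, those carriers -0.135, junctions -0.031, Ighm -0.20 and Kyat1 -0.051. The higher floor gave -0.055 for metalloproteinases, with fewer genes left. The cause of the other changes of sign was not tested. Medians of 19 further combinations kept their sign and moved by more than 0.30, the spread between probe sets of 1 gene. For neutrophil genes they were 3.04 at the higher floor (4 genes) and 2.56 without a floor. For these genes the centre over bright probe sets gave 0.86 and quantile normalization 0.94. For macrophages the higher floor gave 1.31. Without a floor the medians were 1.91 for mast cells, 0.55 for T and NK cells, 1.04 for interleukins and 0.94 for squamous genes. The mean over probe sets gave 0.55 for T and NK cells, -0.38 for SOCS, STAT and JAK genes, 0.44 for proliferation and -0.465 for clock genes. The higher floor gave 0.96 for antimicrobial proteins, 0.49 for adipocytes and -0.048 for bile acid genes. Without shared-type probe sets antimicrobial proteins gave 0.92 and T and NK cells 0.55, and centring on medians gave 1.05 for complement. A low signal limits 72 higher and 61 lower genes to bounds. No paired analysis was possible because each group has 1 array and no replicate numbers.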
